A study of Homo sapiens with 6 samples.

Results

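Mitochondrial ribosomal proteins are the nuclear-encoded proteins of the ribosome that translates the mRNAs of the mitochondrial genome. They were taken here as the protein-coding genes whose GENCODE 29 symbol is MRPL or MRPS followed by a digit. The annotation holds 78 such genes, and 76 of them had transcripts that matched the deposited tables, of 33367 genes in all. The 76 comprised 48 MRPL genes, named for the large subunit, and 28 MRPS genes, named for the small subunit. MRPL45 and MRPS18B had no matched transcript and were not analysed here.

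The data are RNA-seq libraries of K562 cells, a human erythroleukaemia line, in which clones carried a doxycycline-inducible short hairpin RNA (shRNA) and were kept under 2 µg/ml puromycin. The groups were the induced CDAN1-shRNA clones c1 and c2 (2 libraries), the same clones uninduced (2 libraries), and non-targeting (NT) shRNA cells, induced (1 library) and uninduced (1 library). The tables of the clone labelled c2 carry another clone number in their names, and the labels were followed. Induced cultures had received 1 µg/ml doxycycline for 4 days and uninduced cultures none. The series was designed to set the induced CDAN1-shRNA clones against the other 4 libraries, and CDAN1 is the gene of a congenital dyserythropoietic anaemia. The sample titles give clone names for c1 and c2 but none for the NT cells, which are counted here as a clone. Each clone gave 1 library per state, so p-values measure the spread between these 6 libraries and not between independent clones. Where the clone is a term of the fit, as in the clone contrasts, they measure only the spread within clones. In contrasts of a CDAN1-shRNA clone with NT, the shRNA and the clone cannot be told apart. The sample titles do not say whether c1 and c2 carry the same hairpin, so this may hold between them too. The contrasts of c1 and of c2 with NT use the same NT libraries, so they are not independent of each other. In such bulk libraries, fewer cells with a transcript and less of it per cell cannot be told apart either.

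In the mitoribosome, as in bacteria, the small subunit decodes the mRNA and the large subunit joins the amino acids. A core of these proteins has relatives in bacterial ribosomes, and the others are particular to mitochondria. The genes are transcribed in the nucleus as housekeeping genes, many under ETS-family factors, NRF1 and YY1. Doxycycline, a tetracycline, binds the small subunit of bacterial and mitochondrial ribosomes and inhibits translation there, so the agent that switches on the shRNA can also act on the particle whose proteins these genes encode. Some symbols predate the structures: MRPS30 and MRPS18A lie in the large subunit, and MRPS36 is a component of the 2-oxoglutarate dehydrogenase complex.

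Libraries held between 28318555 and 32352246 estimated reads, and members took between 0.504% and 0.547% of the reads that matched annotated transcripts. Levels are given as TPM (abundance corrected for transcript length and depth) where genes are compared with each other. CPM (estimated counts scaled to library size, with TMM factors between libraries) is used where libraries are compared, save where TPM are named. CDAN1, the target of the shRNA, stood at 16.96 CPM in induced c1 against 37.0 CPM in uninduced c1, at 29.8 CPM in induced c2 against 55.4 CPM in uninduced c2, and at 70.2 CPM in induced NT against 62.5 CPM in uninduced NT. All 10 K562 markers examined passed the filter on low counts, with HBG2, a fetal globin, between 12605 and 16132 TPM. Of 7 markers of lymphocytes, fibroblasts and endothelium, 1 passed that filter, the fibroblast gene COL1A2, with at most 1.51 TPM. Summed, the 7 lay at 0.68 and 2.02 TPM in the induced CDAN1-shRNA clones and at 0.74 to 2.55 TPM in the other 4 libraries, with MS4A1 at 0 throughout.

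Promoters are shown here for 7 members that the results below turn on. The first 4 lie on the long arm of chromosome 17 and were lower in both CDAN1-shRNA clones than in NT cells. MRPS11 faces MRPL46 on chromosome 15, with RefSeq start sites 320 bases apart on opposite strands. MRPL17 and MRPL52 hold matches to the motifs other than ETS. Each sequence is the 250 bases before a RefSeq start site on GRCh38.p14, given 5′ to 3′ on the strand of the gene. Capitals mark matches, on either strand, to the ETS motif CCGGAAG, the NRF1 core GCATGCGC, the YY1 motif AAGATGGCG or the TATA box TATAAA.
MRPS23, chr17:57850045-57850294, minus strand: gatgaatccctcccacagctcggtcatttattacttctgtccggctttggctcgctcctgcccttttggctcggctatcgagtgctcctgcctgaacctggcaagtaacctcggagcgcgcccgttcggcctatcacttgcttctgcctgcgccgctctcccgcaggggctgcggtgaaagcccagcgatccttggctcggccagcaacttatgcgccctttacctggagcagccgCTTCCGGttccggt
MRPL58, chr17:75012420-75012669, plus strand: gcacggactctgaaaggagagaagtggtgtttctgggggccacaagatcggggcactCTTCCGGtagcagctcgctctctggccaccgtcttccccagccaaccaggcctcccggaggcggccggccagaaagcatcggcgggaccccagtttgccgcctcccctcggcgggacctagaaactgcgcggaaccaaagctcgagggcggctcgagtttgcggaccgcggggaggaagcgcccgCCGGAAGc
MRPS7, chr17:75261629-75261878, plus strand: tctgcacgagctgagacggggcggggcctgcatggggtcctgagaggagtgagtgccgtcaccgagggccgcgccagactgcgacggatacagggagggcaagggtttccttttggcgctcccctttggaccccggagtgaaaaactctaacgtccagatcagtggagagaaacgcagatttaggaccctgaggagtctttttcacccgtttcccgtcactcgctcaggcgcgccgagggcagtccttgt
MRPL38, chr17:75904885-75905134, minus strand: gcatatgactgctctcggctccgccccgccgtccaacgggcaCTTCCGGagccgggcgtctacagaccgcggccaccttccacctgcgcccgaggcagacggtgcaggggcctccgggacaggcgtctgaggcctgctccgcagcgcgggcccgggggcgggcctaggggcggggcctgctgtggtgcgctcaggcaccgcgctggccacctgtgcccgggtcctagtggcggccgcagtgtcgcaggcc
MRPS11, chr15:88467458-88467707, plus strand: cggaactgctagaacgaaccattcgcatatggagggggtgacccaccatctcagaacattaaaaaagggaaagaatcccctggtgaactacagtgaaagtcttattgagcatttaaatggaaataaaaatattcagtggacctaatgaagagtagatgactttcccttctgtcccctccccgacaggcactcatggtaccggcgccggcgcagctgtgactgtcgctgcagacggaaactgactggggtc
MRPL17, chr11:6683341-6683590, minus strand: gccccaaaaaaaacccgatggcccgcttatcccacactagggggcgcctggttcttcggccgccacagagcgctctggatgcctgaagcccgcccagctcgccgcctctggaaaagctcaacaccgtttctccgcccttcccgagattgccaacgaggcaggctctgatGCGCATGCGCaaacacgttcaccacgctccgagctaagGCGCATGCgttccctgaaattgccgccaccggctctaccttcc
MRPL52, chr14:22829637-22829886, plus strand: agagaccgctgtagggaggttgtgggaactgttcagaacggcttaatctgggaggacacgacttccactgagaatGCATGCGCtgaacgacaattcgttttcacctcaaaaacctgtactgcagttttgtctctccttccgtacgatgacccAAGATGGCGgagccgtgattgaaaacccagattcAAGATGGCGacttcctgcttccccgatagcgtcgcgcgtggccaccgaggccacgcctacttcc

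The capitals in MRPS23, MRPL58 and MRPL38 are ETS matches. Those in MRPL17 are NRF1 matches, of which the longer run holds 2 that overlap on opposite strands. In MRPL52 the first run is an NRF1 match and the other 2 are YY1 matches. The printed windows of MRPS7 and MRPS11 hold none of the 4 motifs. Promoters were found for 67 members, with 83 start sites. Over windows of 300 bases (250 before and 50 after the start), the ETS motif was present in 39.8% of member promoters, against 13.0% of the 20583 promoters of coding genes. The YY1 motif was present in 14.5% of member promoters against 2.5%, the NRF1 core in 6.0% against 3.8%, and the TATA box in 3.6% against 9.1%. MRPL and MRPS promoters held the ETS motif in 37.3% and 43.8% of windows. A match of letters is a description and does not show that a factor binds.

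All 76 members passed the filter on low counts, which 14075 genes passed in all. Mean levels over the 6 libraries lay between 14.0 and 229 TPM for every member but MRPL30. The median member was at 82.2 TPM, against 12.6 TPM for all tested genes and 1960 TPM for the 79 cytosolic ribosomal protein genes. MRPL and MRPS genes had median levels of 83.5 and 82.2 TPM. Among proteins of the large subunit by structure, the 30 with bacterial relatives had a median of 95.3 TPM and the 19 particular to mitochondria one of 61.4 TPM. In the small subunit the medians were 79.4 TPM for 16 proteins with bacterial relatives and 91.0 TPM for 9 particular to mitochondria.

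The most abundant MRPL genes were MRPL21 (229 ± 11.3 TPM, SD over 6 libraries), MRPL20 (192 ± 20.3), MRPL2 (190 ± 17.1), MRPL52 (177 ± 34.7) and MRPL12 (160 ± 26.4). MRPL21 was above all others in mean, while the next 3 lie within their spread of each other. MRPL12 forms the stalk that recruits translation factors. The most abundant MRPS genes were MRPS24 (161 ± 20.6 TPM), MRPS34 (145 ± 16.2), MRPS22 (136 ± 9.26), MRPS16 (132 ± 9.79) and MRPS25 (124 ± 5.89), and neighbours in that order differed by less than their spread. MRPS12, which lies in the decoding centre, was between 97.0 and 118 TPM.

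At the low end of the large subunit were MRPL50 (14.0 ± 0.877 TPM), MRPL57 (17.4 ± 1.66), MRPL44 (21.7 ± 1.18) and MRPL17 (22.1 ± 2.97). At that of the small subunit were MRPS21 (22.0 ± 2.16 TPM), MRPS31 (25.3 ± 2.22), MRPS17 (27.8 ± 3.11), MRPS26 (33.2 ± 3.804) and MRPS14 (40.9 ± 1.90). MRPL30 had 2.70 and 1.05 TPM in induced c1 and c2, 0.89 and 1.94 TPM in uninduced c1 and c2, and 0.94 and 0.74 TPM in induced and uninduced NT. These rest on at most 53.3 estimated reads in a library, so its folds are the least certain of the set. Pooled over the 6 libraries, 31.8% of its reads fell in protein-coding transcripts. The coding transcript MRPL30-201 held 34.4 reads in induced c1 (64.6% of that library's reads of the gene) and 0 in every other library. MRPS18A and MRPS18C, paralogues of one bacterial S18 protein, ranged over 53.5 to 64.4 CPM and 42.2 to 49.2 CPM in the 6 libraries. Over all members, 92.2% of reads fell in protein-coding transcripts. The share was 57.0% for MRPS11, 58.0% for MRPL2 and 58.7% for MRPL11.

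**Figure D1:**
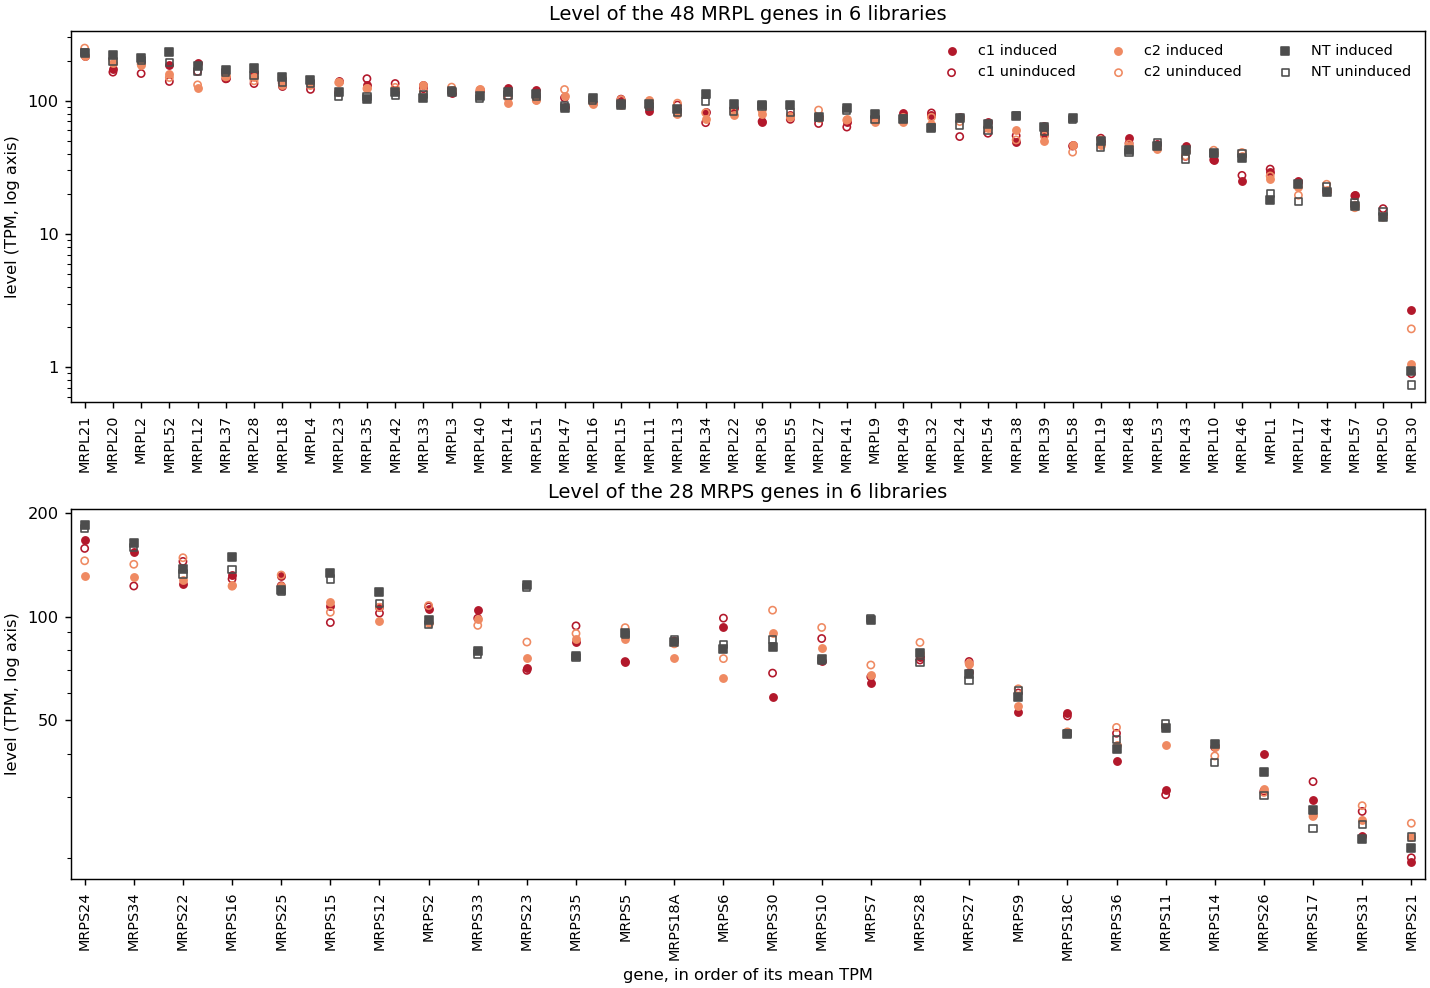
Level in TPM (log axis) of the 48 MRPL genes (top) and 28 MRPS genes (bottom) in 6 libraries, in order of mean level. Filled symbols are induced and open symbols uninduced libraries, circles the CDAN1-shRNA clones and squares NT. Apart from MRPL30, mean levels lie between 14.0 and 229 TPM, and MRPS23, MRPS7 and MRPL58 show the NT squares above the clones.

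No member passed the threshold in the comparison the series was designed for, induced CDAN1-shRNA clones against the other 4 libraries (edgeR's quasi-likelihood test, Benjamini-Hochberg adjusted p under 0.05 over all 14075 genes). That fit called 0.0% of all genes. An unadjusted p under 0.05 was held by 0 members and by 322 of all 14075 genes. The clone was also fitted as a block, which pairs the induced with the uninduced library of each clone. That fit has no doxycycline term, so its fold change is that of c1 and c2 between their states. It thus compares the same libraries as the blocked comparison of those clones alone, given below. In both, the shRNA and doxycycline cannot be told apart. With the block, 0.0426% of all genes and 0 of 76 members were called. There, 7 of 76 members had an unadjusted p under 0.05, against 1635 of all 14075 genes. DESeq2 and limma voom, blocked or not, also called 0 members. The median log2 fold change of the members was −0.05 (−0.03 with the block), against −0.001 and −0.005 for all tested genes.

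The 4 members with the lowest values in that comparison were MRPS23 (−0.46 ± 0.26, SE), MRPS7 (−0.38 ± 0.21), MRPL58 (−0.32 ± 0.28) and MRPL38 (−0.26 ± 0.20), each with an adjusted p of 1. With the clone as block, the values were −0.07 ± 0.077 for MRPS23, −0.05 ± 0.068 for MRPS7, 0.13 ± 0.088 for MRPL58 and 0.03 ± 0.072 for MRPL38. MRPL58 is a peptidyl-tRNA hydrolase that frees stalled mitoribosomes. These are the chromosome 17 genes whose promoters are printed above, and their clone levels are described further on. At the other end, MRPL30 had a value of 1.16 ± 0.72, MRPL23 of 0.22 ± 0.099, MRPS33 of 0.19 ± 0.13, MRPL24 of 0.18 ± 0.15 and MRPL33 of 0.17 ± 0.11. MRPS36, the fifth lowest, had a value of −0.21 ± 0.10.

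Comparing the 3 induced with the 3 uninduced libraries, all clones together, called 0.0% of all genes and 0 members. Under an unadjusted p of 0.05 were 1 member (MRPS36) and 217 of all 14075 genes. With the clone as block, 0.128% of all genes and 0 members were called. In that fit 12 of 76 members had an unadjusted p under 0.05, against 1918 of all 14075 genes. The lowest adjusted p among members was 0.22, for MRPL28. When the CDAN1-shRNA clones alone were compared between states, 0.0% of all genes were called without and 1.0% with the block, and 0 members in either. The highest values there, besides MRPL30 (1.31), were those of MRPL24 (0.31 ± 0.16), MRPL28 (0.25 ± 0.11), MRPS26 (0.21 ± 0.18) and MRPL17 (0.21 ± 0.18). The lowest were those of MRPS36 (−0.22 ± 0.11), MRPS31 (−0.22 ± 0.13), MRPL13 (−0.21 ± 0.098), MRPS10 (−0.20 ± 0.083) and MRPS22 (−0.18 ± 0.082). The test of the difference between the response of those clones and that of NT called 0.0% of all genes without and 0.135% with the block, and 0 members. Its extremes were MRPL33 (0.23 ± 0.22), MRPL24 (0.18 ± 0.28), MRPL57 (0.17 ± 0.34), MRPL58 (0.15 ± 0.23) and MRPL48 (0.15 ± 0.29), and MRPL55 (−0.29 ± 0.19), MRPL17 (−0.28 ± 0.31), MRPL13 (−0.23 ± 0.17), MRPL39 (−0.21 ± 0.28) and MRPL18 (−0.18 ± 0.14), each within 2 SE of 0. Each of these comparisons was also run with DESeq2 and limma voom, with 0 members called.

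The responses of single members to induction were small and are given as values. MRPL28 had 116, 101 and 124 CPM in induced c1, c2 and NT, against 90.4, 91.7 and 113 CPM in the same clones uninduced. Each induced library was above its own uninduced library, and the groups overlap, since NT lies higher in both states. The fitted log2 fold change with the clone as block was 0.21 ± 0.058. MRPL17 had 25.9, 21.3 and 25.9 CPM in induced c1, c2 and NT, against 22.2, 18.7 and 18.5 CPM uninduced, a change of 0.30 ± 0.084 (adjusted p = 0.228, edgeR with block). MRPL24 had 42.3, 40.4 and 41.2 CPM in the induced libraries, against 29.1, 37.7 and 37.8 CPM in the uninduced ones. The groups did not overlap, with uninduced c1 lowest, and its blocked change was 0.25 ± 0.095 (adjusted p = 0.32, edgeR with block).

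In the other direction, MRPS36 had 33.4, 35.7 and 36.8 CPM in induced c1, c2 and NT, against 40.9, 39.7 and 42.8 CPM uninduced. Its groups did not overlap either, and the blocked change was −0.22 ± 0.065 (adjusted p = 0.238, edgeR with block). MRPS31 had 21.8, 22.7 and 21.1 CPM induced, against 25.998, 25.7 and 23.7 CPM uninduced, again with no overlap. MRPL47, the homologue of bacterial uL29, near the exit tunnel, had 75.7, 84.2 and 72.7 CPM induced, against 83.2, 95.5 and 81.8 CPM uninduced, where the groups overlap. These 3 were thus lower in each induced library than in its own uninduced one, with responses no lower than −0.29. MRPS30 and MRPS9 had mean responses of −0.15 each, MRPL1 and MRPL13 of −0.13, MRPL30 of 1.04, MRPS26 of 0.19, MRPS15 of 0.10 and MRPS34 of 0.07. MRPL10 and MRPL11 were at 45.2 and 55.4 CPM in induced c1, against 47.5 and 58.8 CPM in uninduced c1. Of MRPS genes, 13 of 28 (46.4%) were lower in the induced library of all 3 clones and 3 (10.7%) higher in all. Of MRPL genes, 10 of 48 (20.8%) were lower in all and 7 (14.6%) higher in all. The MRPS count includes MRPS30 and MRPS36, which lie outside the small subunit. By place in the structure, 7 of 16 small-subunit proteins with bacterial relatives were lower in all and 1 higher. Of the 9 particular to mitochondria, 3 were lower and 2 higher. In the large subunit, 9 of 30 with bacterial relatives were lower and 4 higher. Of its 19 particular to mitochondria, 2 were lower and 3 higher. Among all tested genes, 20.0% were lower and 17.8% higher in all 3, and these counts carry no test.

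The large-to-small ratio, the log2 of summed MRPL over summed MRPS TPM, was higher in the induced library of each clone. It was 0.98 in induced against 0.91 in uninduced c1, 0.96 in induced against 0.91 in uninduced c2, and 0.94 in induced against 0.89 in uninduced NT. The differences were 0.076, 0.056 and 0.048, so summed MRPL transcripts ranged only between 1.85 and 1.98 times the summed MRPS transcripts. The difference was positive in 21 of 21 values, 7 ways of forming the ratio in 3 clones, which reuse the same libraries. A score over chosen members carries no test here. The 3 induced values lay above the 3 uninduced values in summed TPM. They overlapped when CPM were summed, and when MRPS30 and MRPS18A were moved to the large subunit and MRPS36 left out. In c2 the difference was 0.015 with summed CPM.

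The sums behind the ratio went different ways in the 3 clones. In c1 the summed MRPL level was 5.23% higher in the induced library, with the MRPS sum at −0.19%. In c2 both sums were lower in the induced library, with differences of −3.0% for MRPL and −6.68% for MRPS. In NT both were higher, MRPL by 5.56% and MRPS by 2.13%. These are sums of TPM and carry no TMM factors. The TPM of a library share a fixed total, which includes the mitochondrial mRNAs. Those mRNAs also differed between states, as given below, and their part in these sums was not tested. The member with the largest rise in TPM was MRPL52 in c1 (45.3 TPM) and in NT (39.9 TPM). Median responses of single genes were 0.02, −0.05 and 0.00 for MRPL and −0.03, −0.09 and −0.03 for MRPS genes in c1, c2 and NT, against −0.01, 0.00 and 0.00 for all tested genes. For comparison, the ratio of cytosolic RPL (49 genes) to RPS (30 genes) differed by 0.057 in c1, −0.005 in c2 and 0.011 in NT.

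**Figure D2:**
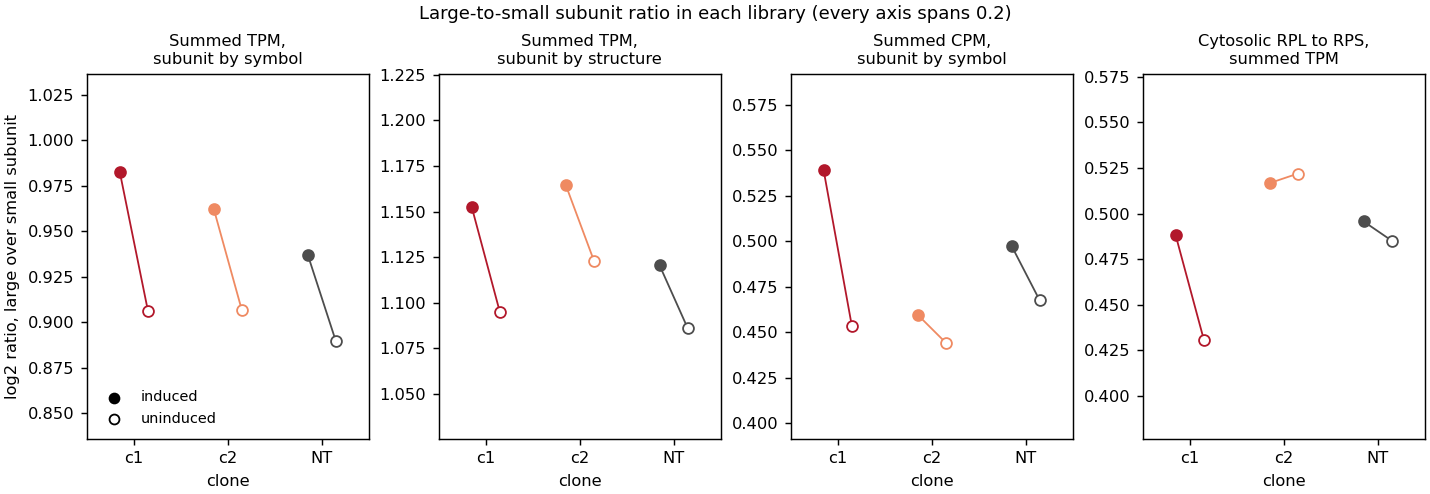
Log2 ratio of large- to small-subunit transcripts in each library, filled circles induced and open circles uninduced, joined within a clone. From left, the ratio is formed from summed TPM by symbol, from summed TPM by place in the structure, from summed CPM by symbol, and for cytosolic ribosomal proteins. In the first panel each induced library is above its own uninduced library, by 0.076, 0.056 and 0.048.

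Responses were also set against base composition. Across members, the response rose with the GC content of the transcripts, and Spearman's rho was 0.637 for c1, 0.315 for c2 and 0.416 for NT (76 genes that share the same 2 libraries). Over all tested genes rho was 0.42, 0.141 and 0.147. With transcript length, rho across members was −0.454 for c1, 0.014 for c2 and −0.336 for NT. Over all tested genes it was −0.101, 0.043 and −0.016. MRPL transcripts had a median GC content of 51.5% and MRPS transcripts one of 47.3%. Their median lengths were 1057 and 1223 bases, and the ratio was not adjusted for length. The genes named above as lower in induced libraries, MRPS36 (35.2% GC), MRPL47 (38.8%) and MRPS31 (39.6%), lie below the member median of 50.5%. Of those named as higher, MRPL28 (62.1%) and MRPL24 (54.6%) lie above it and MRPL17 (50.3%) just below. When the median response of tested genes in the same one of 10 bins of GC content was removed, the ratio differed by 0.044 in c1, 0.048 in c2 and 0.042 in NT, against 0.076, 0.056 and 0.048 before.

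**Figure D3:**
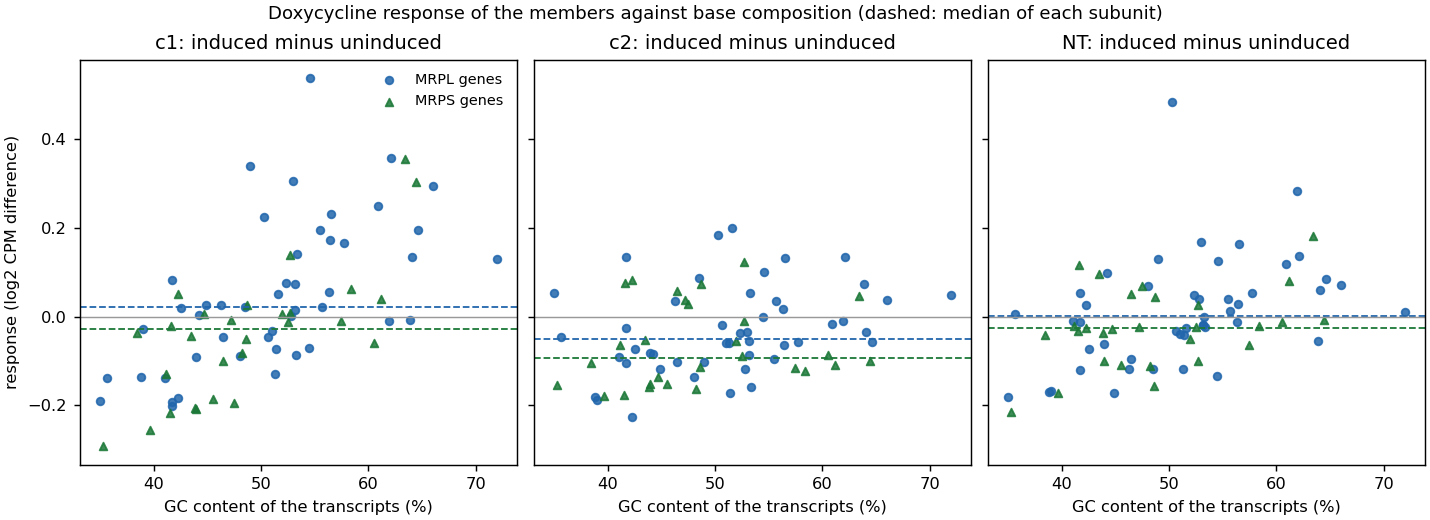
Response (log2 CPM, induced minus uninduced) of each member against the GC content of its transcripts, in c1, c2 and NT. Blue circles are MRPL and green triangles MRPS genes, dashed lines their medians, and MRPL30 is left out for its few reads. The rise with GC content is steepest in c1, where rho was 0.637.

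The genes that work with the mitoribosome were taken as lists beside the members. Tested were 5 mitoribosome proteins under other symbols (such as DAP3 and PTCD3), 16 mitochondrial translation factors and 28 assembly and RNA modification factors. With them were 14 regulators of mitochondrial transcription. Of all these, 0 were called in any of the 4 comparisons of states, blocked or not. Among the translation factors, 10 of 16 were lower in the induced library of all 3 clones and 1 higher in all. Of all tested genes, 20.0% were lower and 17.8% higher in all 3. The assembly and modification factors had 5 of 28 lower and 5 higher, and the regulators 5 of 14 lower and 4 higher. Of the 5 mitoribosome proteins under other symbols, 0 were lower and 2 higher in all 3. These counts carry no test. The largest values of the state comparison among regulators were those of TEFM, the mitochondrial transcription elongation factor (−0.30), and NRF1 (0.17).

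The 13 mRNAs that mitoribosomes translate were lower in the induced than in the uninduced library for 11 of 13 in c1, 5 of 13 in c2 and 13 of 13 in NT. Of all tested genes, 47.2% in c1, 49.7% in c2 and 49.1% in NT were higher in the induced library. The 13 mRNAs share the same libraries of each clone, and these counts carry no test. The median response of the 13 lay at −0.28 for c1, 0.10 for c2 and −0.41 for NT, so the clones went different ways. Summed, they stood at 173866 against 191392 TPM in induced and uninduced c1, at 168708 against 157066 TPM in c2, and at 149587 against 179846 TPM in NT. None was called in the comparison of states (lowest adjusted p with the block 0.181, edgeR, for MT-CO1 and MT-ND4L). The 12S and 16S mitochondrial rRNA genes had no matched transcript and were not analysed here.

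Members and other genes alike differed more between clones than between states. For 49 of 76 members (64.5%), the range of the clone means exceeded the largest induced-to-uninduced change within any clone, against 63.8% of all tested genes. Clone contrasts used both libraries of each clone, with doxycycline state as a term. Between c1 and NT, 22 members (28.9%) were called, 8 higher and 14 lower, against 27.8% of all tested genes (13.8% higher and 14.0% lower). Between c2 and NT, 16 members (21.1%) were called, 2 higher and 14 lower, against 21.1% of all tested genes (11.8% higher and 9.21% lower). Between c1 and c2, 14 members (18.4%) were called, 10 higher and 4 lower, against 26.8% of all tested genes (11.9% higher and 14.9% lower). The members' share of calls was thus near the background in both contrasts with NT and below it between c1 and c2. Calls of lower members were 18.4% of the set in both contrasts with NT, which carries no test. Among the markers, COL1A2 was lower in c1 and higher in c2 than in NT, at 0.11 and 0.237 TPM in induced and uninduced c1 and 1.33 and 1.51 TPM in induced and uninduced c2, against 0.404 and 0.648 TPM in induced and uninduced NT. Of the 10 K562 markers, 1 was called higher and 3 lower in c1 over NT, 6 lower in c2 over NT, and 7 higher in c1 over c2 (median of the 10 in that contrast, 0.27). The part of these markers in the contrasts was not tested.

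These counts rest on 2 libraries a clone. Left without 1 library, the contrast of c1 with NT called between 11 members (without uninduced NT) and 22. That of c2 with NT called between 5 (without induced c2) and 22 (without induced c1), and that of c1 with c2 between 5 (without either c2 library) and 14. Over 14 alternatives (tools, scaling, filters and left-out libraries), 9 of the 22, 5 of the 16 and 5 of the 14 calls were made in every one. Those named next were, unless said otherwise.

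Of the 7 measured members on the long arm of chromosome 17, a run of 4 was lower in both CDAN1-shRNA clones than in NT. None of these was called between c1 and c2, with values of −0.12 for MRPS23, 0.13 for MRPL58, 0.04 for MRPS7 and 0.04 for MRPL38. Both contrasts share the NT libraries, so lower levels in the clones and higher levels in NT cannot be told apart. MRPS23, a small-subunit protein particular to mitochondria, had 43.2 and 43.1 CPM in induced and uninduced c1 and 44.8 and 49.2 CPM in induced and uninduced c2, against 74.3 and 75.7 CPM in induced and uninduced NT. All clone libraries lie below both NT libraries, and c1 reached 57.5% and c2 62.6% of the NT level. The log2 fold changes over NT were −0.80 ± 0.075 in c1 (adjusted p = 0.00046, edgeR) and −0.68 ± 0.075 in c2 (adjusted p = 0.000947). MRPL58 was at 26.03 to 26.95 CPM in c1 and 22.6 to 25.9 CPM in c2, against 41.2 to 41.9 CPM in NT, or −0.65 ± 0.089 in c1 and −0.78 ± 0.089 in c2. MRPS7, a homologue of the bacterial S7 that organises the small subunit's head, was at 59.6 to 60.1 CPM in c1 and 56.4 to 59.98 CPM in c2, against 89.8 to 91.2 CPM in NT. Its changes were −0.60 ± 0.065 in c1 and −0.64 ± 0.065 in c2. MRPL38, a large-subunit protein particular to mitochondria, was at 55.1 to 55.4 CPM in c1 and 52.4 to 55.2 CPM in c2, against 76.4 to 79.4 CPM in NT, or −0.50 ± 0.070 in c1 and −0.53 ± 0.070 in c2.

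The members on either side of that run did not share it in both clones. MRPL10 and MRPL27, nearer the centromere, had changes of −0.13 ± 0.076 and −0.10 ± 0.095 in c1 and of −0.03 ± 0.076 and −0.01 ± 0.095 in c2, none called. MRPL12, nearest the end of the arm, had 137 and 119 CPM in induced and uninduced c1 and 86.3 and 89.9 CPM in induced and uninduced c2, against 128 and 121 CPM in induced and uninduced NT. It was lower in c2 than in NT (−0.50 ± 0.071, adjusted p = 0.00281, edgeR) and not called in c1 (0.04 ± 0.070). The contrast of c1 with c2 gave 0.54 ± 0.071 (adjusted p = 0.00151, edgeR), so the clones differed at this gene.

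Changes of the other tested genes nearby, members left out, are set beside these values. Within 5 Mb of MRPS23, 52 such genes had a median change of −0.38 in c1 and −0.33 in c2, and 51.9% of them were called lower in each clone. Around MRPL58 the medians were −0.44 in c1 and −0.43 in c2 over 91 genes, against −0.06 in c1 and 0.08 in c2 over 131 genes around MRPL10. Around MRPL12 the medians were −0.09 in c1 and −0.51 in c2 over 90 genes, and 22.2% and 71.1% of these were called lower. On the GRCh38 build, MRPS23 spans chr17:57834781-57850056, MRPL58 chr17:75012670-75021261, MRPS7 chr17:75261674-75266373, MRPL38 chr17:75898643-75905413 and MRPL12 chr17:81703357-81707526.

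**Figure D4:**
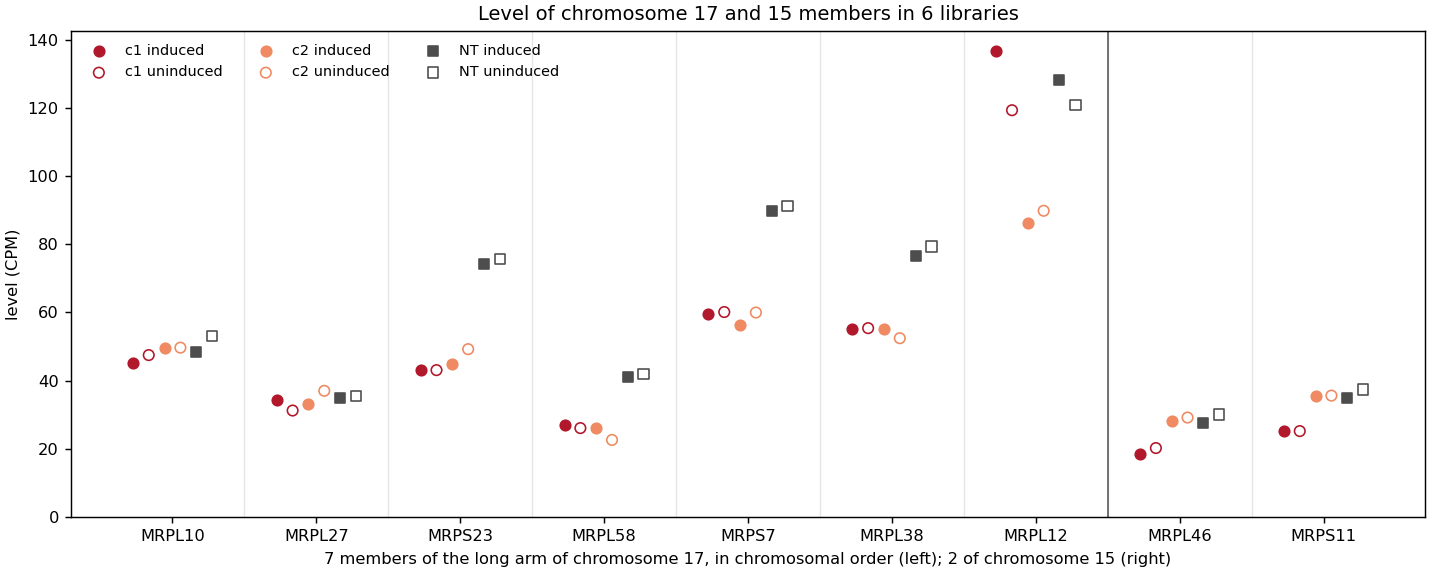
CPM of 7 chromosome 17 members in chromosomal order and of 2 chromosome 15 members, in 6 libraries; filled symbols are induced and open symbols uninduced, circles CDAN1-shRNA clones and squares NT. MRPS23, MRPL58, MRPS7 and MRPL38 lie below NT in both clones, MRPL12 in c2, and MRPL46 and MRPS11 in c1.

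On chromosome 15, MRPL46, a large-subunit protein particular to mitochondria, and MRPS11, the homologue of bacterial S11 in the small subunit, were lower in c1. MRPL46 spans chr15:88459476-88467419 and MRPS11 chr15:88467453-88480773 on GRCh38. MRPL46 had 18.4 and 20.2 CPM in induced and uninduced c1 and 27.97 and 29.1 CPM in induced and uninduced c2, against 27.6 and 29.997 CPM in induced and uninduced NT. MRPS11 had 25.3 and 25.2 CPM in induced and uninduced c1 and 35.3 and 35.6 CPM in induced and uninduced c2, against 34.8 and 37.3 CPM in induced and uninduced NT. Both c1 libraries were below every other library for both genes. Over NT the changes in c1 were −0.58 ± 0.083 and −0.52 ± 0.081, and over c2 they were −0.57 ± 0.083 and −0.49 ± 0.081 (adjusted p = 0.00247 and 0.00407, edgeR). The change of MRPS11 over NT was −0.30 (adjusted p = 0.063, edgeR) when its protein-coding transcripts alone were counted. In c1 the 59 tested neighbours had a median of −0.52 over NT, and the 492 tested genes of chromosome 15 one of −0.46, with 56.3% called lower. In c2 the chromosome's median was 0.05.

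On chromosome 5, MRPS30 (chr5:44808925-44820428) had 90.4 and 104 CPM in induced and uninduced c1 and 132 and 147 CPM in induced and uninduced c2, against 121 and 129 CPM in induced and uninduced NT. It was lower in c1 than in NT (−0.36 ± 0.056) and than in c2 (−0.52 ± 0.056, adjusted p = 0.000648, edgeR), and its 17 neighbours had a median of −0.29 in c1 and 0.09 in c2. MRPL36, nearer the end of the short arm, was at 23.2 to 23.8 CPM in c1 against 30.6 to 31.5 CPM in NT (−0.40 ± 0.081), among 28 neighbours with a median of −0.42. That call was lost without either NT library. MRPS36, MRPS27 and MRPL22 on the long arm were not called in c1 or c2 over NT.

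As a description across the set, over the 76 members, the change of c1 over NT correlated with the median change of neighbours within 5 Mb (Pearson r = 0.715, Spearman rho = 0.548). The values were r = 0.663 and rho = 0.401 for c2 over NT, and r = 0.677 and rho = 0.48 for c1 over c2. Over 14055 tested genes r was 0.166, 0.128 and 0.144, and rho was 0.277, 0.229 and 0.236. For the comparison of induced with uninduced libraries, members had r = 0.181 and rho = 0.415, and all tested genes r = 0.131 and rho = 0.256. These points share libraries, and neighbouring members share neighbours. The 2 sets also differ in level, with medians of 82.2 TPM for the members and 12.6 TPM for all tested genes. The bearing of level on the correlations was not tested. DNA copy number was not measured.

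**Figure D5:**
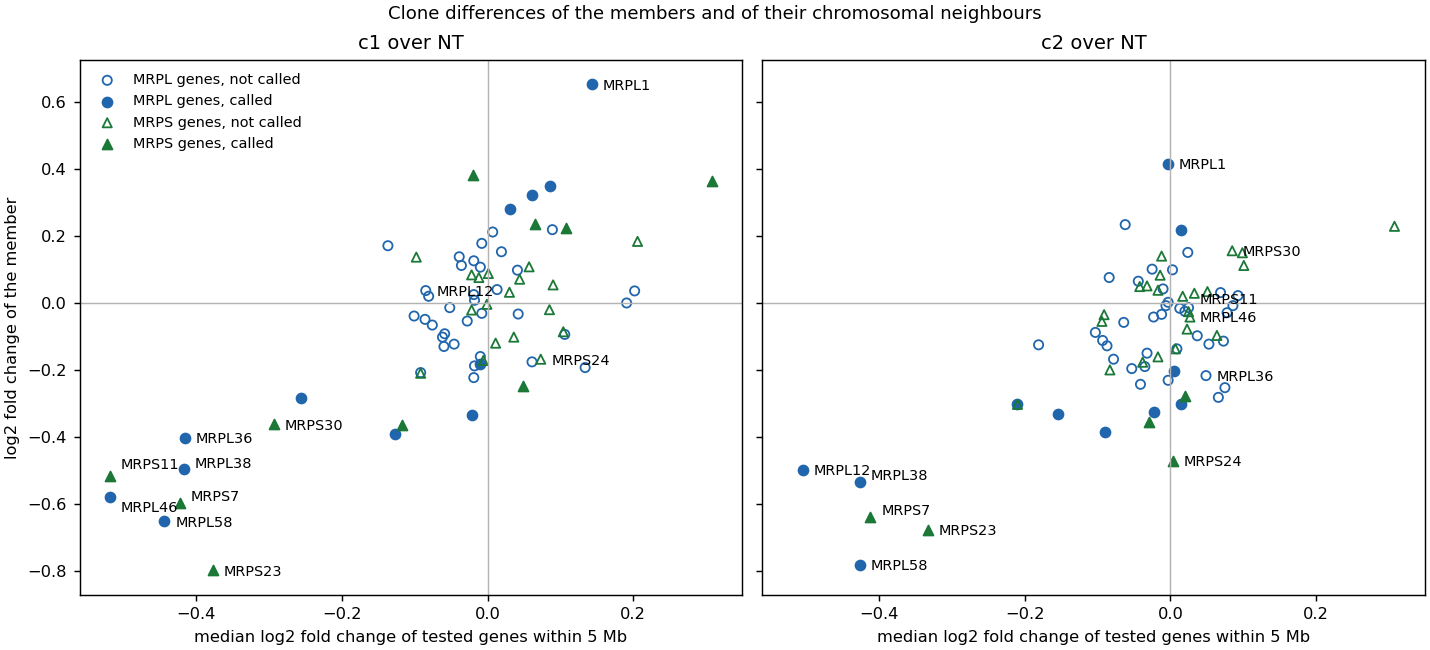
Log2 fold change over NT of each member (vertical) against the median of tested non-member genes within 5 Mb (horizontal), for c1 (left) and c2 (right); filled symbols passed an adjusted p of 0.05, circles are MRPL and triangles MRPS genes, and MRPL30 is left out. The chromosome 17 members sit at the lower left in both panels, MRPL46, MRPS11, MRPS30 and MRPL36 in the left panel and MRPL12 in the right one.

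Several members were called where the median of their neighbours was within 0.16 of 0 on the log2 scale. MRPL1, a large-subunit protein whose bacterial relative forms a stalk at the exit site, had 32.4 and 33.1 CPM in induced and uninduced c1 and 26.05 and 29.7 CPM in induced and uninduced c2, against 19.7 and 22.1 CPM in induced and uninduced NT. It was higher in c1 (0.65 ± 0.087, adjusted p = 0.0019, edgeR) and in c2 (0.42 ± 0.087, adjusted p = 0.0142), with neighbour medians of 0.14 in c1 and 0.00 in c2. The c2 call was lost in 5 of 14 alternatives, among them each that left out a c2 or NT library. MRPS15, the homologue of bacterial S15, was lower in c1 (−0.36 ± 0.064) and c2 (−0.36 ± 0.064), and MRPL41 in c1 (−0.39 ± 0.067) and c2 (−0.33 ± 0.067). The c2 calls of these were lost in 3 and 4 alternatives, without either c2 library or without uninduced NT among them. MRPS24, the homologue of bacterial S3, was at 53.9 and 58.7 CPM in induced and uninduced c2, against 77.5 and 78.6 CPM in induced and uninduced NT (−0.47 ± 0.072), a call lost without induced c2.

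MRPS6 separated the CDAN1-shRNA clones from each other. It had 67.5 and 71.4 CPM in induced and uninduced c1, against 46.0 and 51.5 CPM in induced and uninduced c2, with NT between them at 56.7 and 61.2 CPM. The contrast of c1 with c2 was 0.51 ± 0.069 (adjusted p = 0.0017, edgeR), while neighbours had a median of 0.03. Over NT its values were 0.24 in c1 and −0.28 in c2, calls that were lost in 12 and 8 alternatives. The remaining calls were each lost in at least 1 alternative. In c1 against NT these were MRPL32, MRPL35, MRPL48, MRPS17, MRPS33 and MRPS35, higher by 0.22 to 0.38, and MRPL20, MRPL34, MRPL37 and MRPS5, lower, with values of −0.33 to −0.18. In c2 against NT they were MRPL47 (0.22) and MRPL28, MRPL34, MRPL37, MRPL39 and MRPL52, with values of −0.38 to −0.20. Between c1 and c2 they were MRPL14, MRPL32, MRPL35, MRPL48, MRPL57, MRPS2, MRPS17 and MRPS24 (0.19 to 0.33) and MRPS5 (−0.21). Below the threshold, MRPL23, MRPS33 and MRPS30 stood at 0.24, 0.23 and 0.16 in c2 over NT, and MRPS21 at −0.22 in c1 over c2.

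The genes that work with the mitoribosome were also compared between clones, where 27.8% (c1 over NT), 21.1% (c2 over NT) and 26.8% (c1 over c2) of all tested genes were called. Of 16 translation factors, 4 were called in c1 over NT, 1 in c2 over NT and 2 in c1 over c2. TACO1, a translational activator of MT-CO1, was lower in both clones than in NT (−0.63 in c1 and −0.53 in c2). MTIF2, GUF1 and TUFM, an initiation factor and a pair of elongation factors, were lower in c1 than in NT (−0.25, −0.28 and −0.16). Between c1 and c2, MTIF2 was lower (−0.19) and GFM1, an elongation factor, higher (0.26).

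Of 28 assembly and modification factors, 1 was called higher and 5 lower in c1 over NT, 3 higher and 2 lower in c2 over NT, and 3 higher and 6 lower in c1 over c2. ERAL1, a chaperone of the 12S rRNA, was higher in both clones than in NT (0.26 in c1 and 0.64 in c2), and RPUSD4, a pseudouridine synthase, lower in both (−0.25 in c1 and −0.41 in c2). NGRN, METTL15, RPUSD3 and NSUN2 were lower in c1 than in NT (−0.51, −0.49, −0.32 and −0.29). In c2, NOA1 and GTPBP10 were higher (0.50 and 0.37) and DHX30 lower (−0.22) than in NT. The 6 of lowest adjusted p in c1 over c2 were NGRN (−0.55), ERAL1 (−0.38), NSUN2 (−0.36), NOA1 (−0.38), METTL15 (−0.45) and YBEY (0.64).

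Of 14 regulators, TFAM, GABPA and PPRC1 were higher in c1 than in NT (0.35, 0.40 and 0.23) and MTERF1 in c2 (0.45). In c1 over c2, TFAM and PPRC1 were higher (0.30 and 0.25) and MTERF1 lower (−0.48). Of the 13 mitochondrial mRNAs, MT-CO1 and MT-CO2 were higher in c1 than in NT (0.38 each), MT-ND3 lower in c2 than in NT (−0.42), and MT-ATP6 higher in c1 than in c2 (0.39). Of the 5 mitoribosome proteins under other symbols, CHCHD1 was lower in c2 than in NT (−0.30), and 0 were called in the other 2 contrasts.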

How the data were processed

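RNA was extracted from K562 cultures and sequenced as bulk libraries. Each of the 6 deposited tables lists, per transcript, a length, an effective length, TPM and an estimated count of reads, and per the submitters' processing notes the authors made these values with Salmon 1.5.2 on GRCh37. The sources used here give neither the annotation nor the strand setting. Transcripts were joined by identifier to GENCODE 29, whose coordinates are on GRCh38, and 90.3% of 167268 matched; unmatched transcripts held at most 6.5% of reads. Estimated counts and TPM were summed per gene, and the summed estimated counts were rounded to whole numbers. The members, gene lists and comparisons were chosen with earlier results of these data known.

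Genes were filtered by filterByExpr with a smallest group of 2, scaled by TMM and tested with edgeR 4.0.16 (quasi-likelihood test, R 4.3.3), with Benjamini-Hochberg adjustment over all 14075 tested genes and a threshold of 0.05. Log2 CPM used a prior count of 2. Responses are induced minus uninduced log2 CPM within a clone and carry no test. DESeq2 1.42.0 and limma voom 3.58.1, other scalings and filters, length offsets, coding transcripts alone and left-out libraries were alternatives. The names c1, c2 and NT in the labels pair the induced with the uninduced library. Deviations from the state means correlated within clones at r = 0.679 for c1, 0.741 for c2 and 0.608 for NT. Between clones they correlated at −0.477 to −0.196. Such deviations cancel over the clones of a state, so the negative values follow in part from the centring. In simulated counts, the share of false calls was above the nominal level in the blocked and clone fits. Libraries held 28318555 to 32352246 estimated reads, which sets the counting error only and not the spread between cultures.

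In each comparison the named members are those called, or the 5 most changed in each direction where fewer than 5 were called. For levels they are the 5 highest and 5 lowest of each subunit, and for the subunit comparison the 3 highest and 3 lowest mean responses. CDAN1 and a few members of known role are always named, as are up to 6 called genes of each other list, by adjusted p. Promoters come from RefSeq on GRCh38.p14, matched by symbol. One marker gene of another cell type is not reported here.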

Additional observations from a re-analysis of the deposited data

How the results depend on the processing

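No member passed the threshold in any of the 4 comparisons of states under any alternative run, with or without the replicate block. Pairing by clone turned the sign of 2 chromosome 17 members in the comparison of induced CDAN1-shRNA clones with the other libraries. For MRPL58 the value with the replicate block was 0.125, with 0.126 in DESeq2, 0.123 in limma voom, 0.125 with RLE scaling, 0.131 without the low-count filter, 0.108 with a length offset, 0.134 from coding transcripts and 0.13 with unmatched transcripts kept. Adding a doxycycline term gave 0.151, 0.15 and 0.15 in edgeR, DESeq2 and voom, and leaving out single libraries gave 0.05 to 0.2. For MRPL38 the same settings gave 0.034, 0.034, 0.034, 0.034, 0.04, 0.049, 0.042 and 0.039, then 0.089, 0.088 and 0.089, and 0.034 to 0.074 (0.036 without uninduced NT). For MRPS23 the blocked value was 0.005 without either c2 library. MRPL30 turned to −0.266 without induced c1 (1.862 at the highest, without induced c2), to −0.626 under the block without either c1 library, and to −0.205, −0.229 and −0.03 with block and doxycycline term in edgeR, DESeq2 and voom. Among CDAN1-shRNA clones alone it was −0.118 without induced c1 and 2.101 without uninduced c2. The response difference of MRPL57 was −0.003 without uninduced c2 and 0.366 without uninduced c1. The cause of these turns was not tested, beyond the few reads of MRPL30.

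Over all genes, calls ranged between 0 and 22 without and 0 and 141 with the block for induced CDAN1-shRNA clones against the other libraries, 0 and 6 against 0 and 248 for all clones between states, 0 and 2 against 0 and 286 for the CDAN1-shRNA clones between states, and 0 and 5 against 0 and 48 for the response difference. Between clones they ranged over 2021 to 4141 (c1 to NT), 1022 to 3502 (c2 to NT) and 1565 to 3987 (c1 to c2). Members called in c2 against NT numbered 10 without the doxycycline term and 7 with unmatched transcripts kept. In c1 against c2 they numbered 8 in DESeq2, 9 without the doxycycline term, 5 with a length offset and 5 with unmatched transcripts kept. Leaving out 1 library gave 11 to 22, 5 to 22 and 5 to 14 members in the 3 contrasts. The ratio of subunits differed by 0.0154 in c2 and 0.0301 in NT from summed CPM. In c1 it differed by 0.0961 as a mean of log2(TPM + 1), 0.0578 by place in the structure and 0.0439 after adjustment for GC content. It is a value per library, so no replicate was left out. Median levels from coding transcripts were 72.1 TPM for MRPL and 73.2 TPM for MRPS genes. The GC adjustment, the block with unmatched transcripts kept, the block with a doxycycline term in DESeq2 and voom, and other neighbour windows were added after seeing the data. In the clone contrasts, neighbour windows of 2 and 10 Mb gave r between 0.615 and 0.724 and rho between 0.385 and 0.557 for the members.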
